A study of Rattus norvegicus with 35 samples.

Results

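Apolipoproteins are the protein components of the particles that carry triglyceride and cholesterol in plasma, and the 10 genes described here, Apoa1, Apoa2, Apoa4, Apoa5, Apob, Apoc1, Apoc3, Apoe, Apoh and Apom, were taken by name from the annotation of a rat liver array study. They were 10 of 14217 genes to which at least 1 probe set was annotated alone, and they were read by 12 of the 31042 probe sets tested. Apob and Apoe had a pair of probe sets each, and every other gene had 1. Each gene is represented by its probe set with the highest mean.

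The arrays measured liver RNA of rats given BTBPE, a brominated flame retardant, by mouth. The animals were Harlan Sprague Dawley males that began the study at 7 weeks of age, and the compound was gavaged in 5 ml of corn oil per kg. Dosing ran on 5 consecutive days, and the left lobe was taken a day after the last dose. The 6 groups were corn oil vehicle alone and 0.07, 0.69, 6.88, 68 and 680 mg/kg BTBPE, with 5 rats at 68 mg/kg and 6 in each other group. All rats ate NTP-2000 diet and drank tap water freely, so the vehicle rats shared the gavage, the corn oil and the diet with every dose group. The labels call the samples replications of a group, and each of the 35 was counted as 1 rat. If any were repeat preparations, the p-values below would measure technical spread only.

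Apolipoprotein B forms the backbone of very low density and low density lipoproteins, with 1 molecule per particle, and is synthesised by hepatocytes together with the smaller, exchangeable apolipoproteins. Apolipoproteins A-I and A-II are the main proteins of high density lipoprotein. Apolipoproteins E, C-I, C-III and A-V act on clearance, through receptors that take up remnants and through lipoprotein lipase, the enzyme that hydrolyses particle triglyceride. Liver is the main source of most of these proteins, and several of their genes respond to feeding, fasting and nuclear receptors in rodents.

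Values are log2 expression after robust multi-array averaging (RMA), a scale on which a difference of 1 is a doubling. The array medians lay between 4.71 and 4.79, and values ran from 1.45 to 14.44 over all probe sets and arrays. All 9 measured hepatocyte markers (albumin, transthyretin and other plasma proteins among them) averaged above the lowest array median, and the log2 of their summed signal stayed between 16.78 and 16.87 on every array. Markers of Kupffer cells and macrophages were above that median for 12 of 12 genes, with a summed level of 11.85 to 12.82. In whole liver RNA, fewer cells of a type and less RNA per cell cannot be told apart. Intestinal epithelium also makes apolipoproteins, and 2 of 8 of its markers were above the lowest array median. Those were Fabp2, at group means of 5.32 to 5.79, and Cdh17, a cadherin, at group means of 7.00 in vehicle rats and 7.54, 8.64, 8.83, 8.75 and 8.56 at 0.07, 0.69, 6.88, 68 and 680 mg/kg. Vil1, Cdx1, Cdx2, Muc2, Lgals4 and Apobec3 stayed below it in every group mean. The log2 of the summed signal of the 8 markers ran from 7.34 to 10.03 between single arrays. Whether Cdh17 was read from liver cells or from intestinal material was not tested, nor was the part of these genes in any value below. Of the 8 intestinal markers, 0 passed an adjusted p of 0.05 at any dose by limma, a linear model fit. An unadjusted limma p under 0.05 was reached by 0, 1, 2, 1 and 1 of them from the lowest to the highest dose. Of all probe sets, 3.64%, 3.16%, 4.63%, 3.88% and 4.95% reached it.

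In the gene order of the RefSeq annotation (assembly GRCr8), Apoa1, Apoc3, Apoa4 and Apoa5 are neighbours on chromosome 8. Apoe, Apoc1, Apoc4 and Apoc2 are neighbours on chromosome 1. Apob is on chromosome 6, Apoh on 10, Apoa2 on 13 and Apom on 20. Start regions, 250 bases before to 50 bases after an annotated transcript start, were found in RefSeq for 6 of the 10 genes, Apoa4, Apoa5, Apoc1, Apoe, Apoh and Apom, in 10 windows. The 4 printed here belong to members of the gene neighbourhoods whose co-variation is described further on, 1 window per gene, the one with the most searched motifs and the first of those on a tie. They lie at chr8:55435529-55435828 (plus strand, Apoa4), chr8:55457621-55457920 (plus strand, window 1 of 2 of Apoa5), chr1:88478171-88478470 (minus strand, window 2 of 2 of Apoc1) and chr1:88484650-88484949 (minus strand, window 2 of 3 of Apoe), and capitals mark motif matches.
Apoa4: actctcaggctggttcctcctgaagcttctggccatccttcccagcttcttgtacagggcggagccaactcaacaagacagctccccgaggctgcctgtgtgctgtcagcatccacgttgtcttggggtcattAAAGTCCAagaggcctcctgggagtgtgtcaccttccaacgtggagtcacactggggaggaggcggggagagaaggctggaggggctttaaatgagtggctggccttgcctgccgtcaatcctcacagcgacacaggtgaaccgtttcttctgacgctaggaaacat
Apoa5: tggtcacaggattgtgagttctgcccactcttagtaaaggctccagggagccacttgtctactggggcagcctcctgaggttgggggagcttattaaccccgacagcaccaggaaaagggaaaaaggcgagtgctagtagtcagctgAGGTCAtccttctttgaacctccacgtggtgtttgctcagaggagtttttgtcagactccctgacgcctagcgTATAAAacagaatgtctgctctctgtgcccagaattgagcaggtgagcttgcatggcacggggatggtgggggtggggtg
Apoc1: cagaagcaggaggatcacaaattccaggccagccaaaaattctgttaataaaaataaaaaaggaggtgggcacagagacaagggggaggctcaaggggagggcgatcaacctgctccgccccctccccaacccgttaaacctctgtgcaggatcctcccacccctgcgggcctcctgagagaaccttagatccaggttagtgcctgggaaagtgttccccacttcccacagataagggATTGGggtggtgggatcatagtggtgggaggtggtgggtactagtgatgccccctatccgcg
Apoe: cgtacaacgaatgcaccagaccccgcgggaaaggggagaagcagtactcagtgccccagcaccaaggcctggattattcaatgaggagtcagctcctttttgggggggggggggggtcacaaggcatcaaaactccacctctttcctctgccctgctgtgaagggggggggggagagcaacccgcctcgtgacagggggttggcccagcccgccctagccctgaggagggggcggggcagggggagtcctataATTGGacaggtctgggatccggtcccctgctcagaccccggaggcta
The motifs were searched on both strands. AAAGTCCA, the core of the element bound by hepatic nuclear receptors, stood in the Apoa4 window and in 1.37% of 33469 rat start regions. It was added to the search after the Apoa4 sequence had been read. Its longer form CAAAGNNCA, which overlaps it, was in none of the 10 windows and in 6.08% of all. The nuclear receptor half-site AGGTCA stood once in the Apoa5 window, and 16.2% of all windows held it. That window also held the promoter element TATAAA, found in 14.2% of all windows. CCAAT, read as ATTGG on the printed strand, stood in the Apoc1 and Apoe windows and in 37.5% of all. TCACNCCAC, a sterol regulatory element, was in 1 of the 10 windows, the window of Apoa5 that is not printed, and in 1.12% of all. A match is a description of letters and not evidence of binding.

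The question of how reliably these genes were read comes first, because several of them sat near the upper end of the scale. Apoc3, an inhibitor of lipoprotein lipase, averaged 13.84 and ranked 7 of 31042 probe sets in signal. Apoe, the ligand of remnant receptors, averaged 13.82 and ranked 9. Apoh, a plasma protein that binds negatively charged phospholipid, averaged 13.68 and ranked 15, and Apoc1 averaged 13.50 and ranked 30. These ranks describe closeness to the ceiling and not relative RNA amounts, since probe sets differ in how strongly they bind. The mean distance to the brightest probe set of the same array was 0.55 for Apoc3, 0.57 for Apoe, 0.71 for Apoh and 0.89 for Apoc1.

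The same 4 genes varied least between rats. Apoh ran from 13.63 to 13.71 over all 35 rats, a 1.06-fold range, with an SD within groups of 0.019. Apoc3 ran from 13.79 to 13.88, also 1.06-fold, with an SD of 0.024. Apoe ran from 13.74 to 13.88, 1.10-fold, with an SD of 0.028, and Apoc1 from 13.43 to 13.61, 1.13-fold, with an SD of 0.037. Of the 100 probe sets nearest to Apoh in signal, 1 had a smaller SD. For Apoc3 the count was 7 of 100, for Apoe 13 and for Apoc1 30. Spread narrowed with signal across the whole array. The median SD within groups was 0.14 over all probe sets, 0.16 over the 6160 probe sets at 3 to 4, 0.082 over the 335 at 11 to 12, 0.070 over the 178 at 12 to 13 and 0.038 over the 52 at 13 to 14. Among spiked control transcripts, the brighter one also varied less. The cre probe set averaged 13.64 with an SD of 0.052, whereas the BioB probe set, of another transcript, averaged 7.97 with an SD of 0.15. The SD of cre was above the median of 0.038 for probe sets at 13 to 14. Whether signal near the ceiling compressed the differences of the brightest apolipoprotein genes was not tested.

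**Figure D1:**
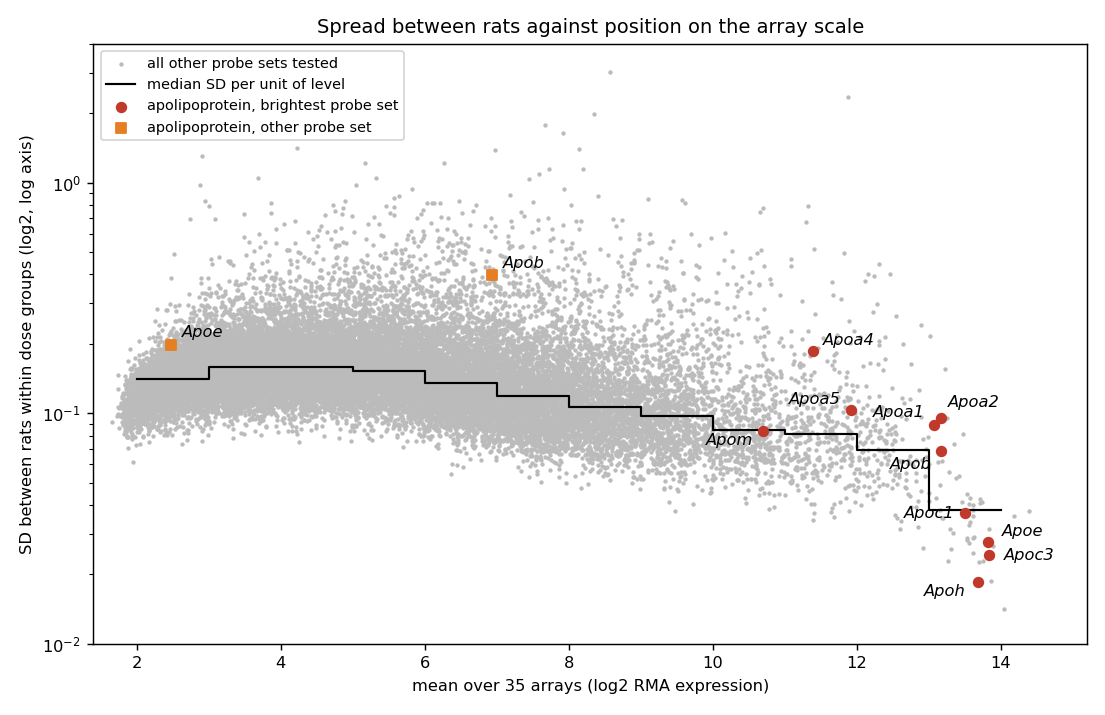
SD between rats within dose groups (log2, log axis) against the mean over 35 arrays (log2 RMA expression) for all probe sets, with the apolipoprotein probe sets coloured and the black line giving the median SD per unit of level. Apoh, Apoc3, Apoe and Apoc1 lie at the right end with SDs of 0.019 to 0.037, and Apoa4 lies above the other brightest apolipoprotein probe sets at 0.19.

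The other 6 genes lay lower on the scale or varied more than probe sets of like signal. Apoa1, the principal protein of high density lipoprotein, averaged 13.07 and ran from 12.90 to 13.24, a 1.27-fold range with an SD within groups of 0.089. Apoa2, its partner on those particles, averaged 13.17 and ran from 12.99 to 13.38, 1.30-fold with an SD of 0.096. Apob averaged 13.16 and ran from 13.04 to 13.27, 1.17-fold with an SD of 0.069. Although these 3 genes were close to the 4 brightest, their spread was wide for their signal: 85, 88 and 75 of the 100 nearest probe sets had a smaller SD than Apoa1, Apoa2 and Apob. Apoa4, made by liver and intestine and carried on triglyceride-rich and high density particles, averaged 11.40 and ran from 11.003 to 11.78. Its 1.71-fold range and SD of 0.19 were the widest among the brightest probe sets of the 10 genes, and 93 of its 100 nearest probe sets varied less. Apoa5, which promotes triglyceride clearance by lipoprotein lipase, averaged 11.91 and ran from 11.71 to 12.07, with an SD of 0.10. Apom, which binds a signalling sphingolipid on high density lipoprotein, averaged 10.70 and ran from 10.48 to 10.85, with an SD of 0.084 that 50 of its 100 nearest probe sets undercut.

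The second probe sets of Apob and Apoe read far lower than the first. The other Apob probe set averaged 6.93, ran from 6.36 to 8.01 and had an SD of 0.40, and over the 35 rats its deviations from group means correlated with those of the brightest at r = 0.51 and rho = 0.56. The other Apoe probe set averaged 2.48, below the lowest array median, and its deviations had r = -0.13 and rho = -0.18 with the brightest. A pair of probe sets read from the same array shares its RNA and labelling, so these correlations are descriptions.

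Across the 5 doses, the levels of the 10 genes stayed close to those of vehicle rats, and no dose group was separated from vehicle for any of them. Of 50 comparisons of a gene at a dose with vehicle, 47 differed by less than 0.1 on the log2 scale, and in 50 of 50 the rats of the dose group overlapped with the vehicle rats. The fitted folds lay between 0.874 and 1.07, and the 95% intervals reached no further than 0.750 at the low end and 1.16 at the high end. All 50 intervals included no change. With limma and Benjamini-Hochberg adjustment, 0 of 10 genes passed an adjusted p of 0.05 at any dose, where 0% of the 31042 probe sets passed at each of the 5 doses. At an unadjusted p under 0.05, 0 of the 10 genes passed at any dose, against 3.64%, 3.16%, 4.63%, 3.88% and 4.95% of all probe sets at 0.07, 0.69, 6.88, 68 and 680 mg/kg. An unmoderated analysis of variance also gave 0 calls at an adjusted p of 0.05. The 5 comparisons share the same vehicle rats and are not independent of one another.

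**Figure D2:**
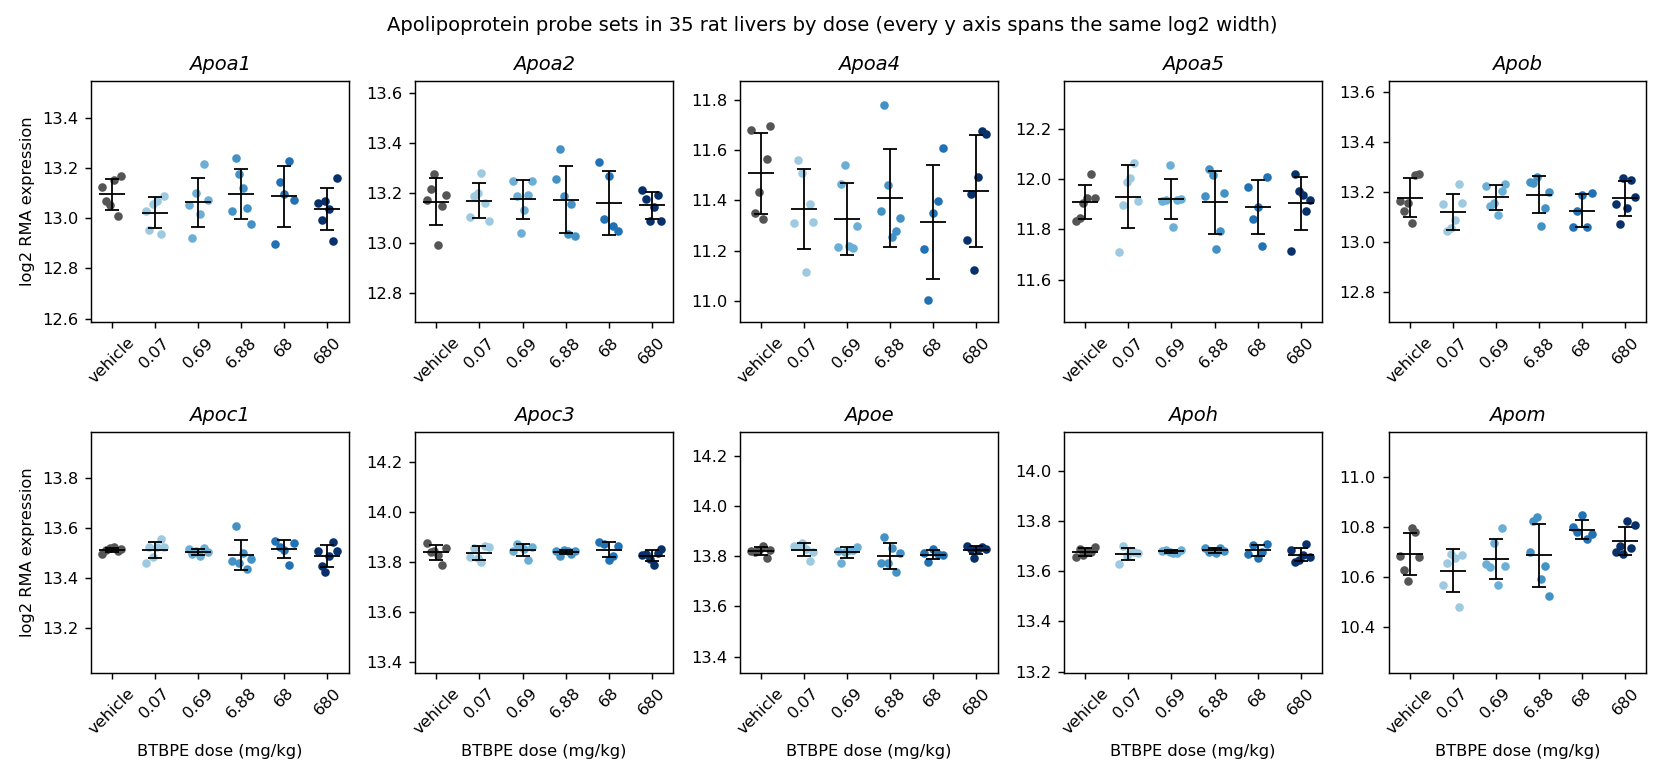
Log2 RMA expression of the brightest probe set of each of the 10 genes in every rat, by BTBPE dose (mg/kg, vehicle at 0), with the group mean and SD as a bar and y axes of equal width. The points of Apoh, Apoc3, Apoe and Apoc1 form nearly flat rows, and those of Apoa4 scatter from 11.003 to 11.78.

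Apoa4 had the largest differences from vehicle. In vehicle rats its lowest, median and highest values were 11.33, 11.50 and 11.70. The corresponding values were 11.12, 11.35 and 11.56 at 0.07 mg/kg, 11.21, 11.26 and 11.54 at 0.69 mg/kg and 11.26, 11.34 and 11.78 at 6.88 mg/kg. The 5 rats at 68 mg/kg had 11.21, 11.003, 11.35, 11.40 and 11.61, and at 680 mg/kg the lowest, median and highest values were 11.12, 11.46 and 11.68. Every dose group reached below the lowest vehicle rat, and every dose group had at least 1 rat above the vehicle mean of 11.51, so the groups overlapped throughout. The fitted log2 differences from vehicle were -0.14, -0.18, -0.098, -0.19 and -0.070 from the lowest to the highest dose, all below 0 but with no order by dose. The difference was largest at 68 mg/kg, where Apoa4 averaged 11.31 ± 0.23 (SD, n = 5) against 11.51 ± 0.16 (SD, n = 6) in vehicle rats, a fold of 0.874 with a 95% interval of 0.750 to 1.02 (unadjusted p = 0.0813, limma adjusted p = 0.999). With the same vehicle rats in all 5 differences, their common sign is no repeated observation.

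Apom showed the largest difference in the other direction. The 5 rats at 68 mg/kg had 10.80, 10.78, 10.85, 10.75 and 10.77, while the lowest, median and highest vehicle rats had 10.58, 10.68 and 10.80. All 5 of these treated rats lay above the vehicle mean of 10.69, and yet the 2 groups overlapped at their edges. The fold at 68 mg/kg was 1.07 with a 95% interval of 0.988 to 1.16 (log2 difference 0.097, SE 0.056, unadjusted p = 0.0946, limma adjusted p = 0.999). At 680 mg/kg the lowest, median and highest rats had 10.69, 10.72 and 10.82, and 5 of 6 exceeded the vehicle mean. The fold there was 1.04, with an interval of 0.960 to 1.12. At the lower doses the group means were 10.63 ± 0.085 at 0.07 mg/kg, 10.67 ± 0.080 at 0.69 mg/kg and 10.69 ± 0.13 at 6.88 mg/kg (SD, n = 6 each).

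A trend over the rank of the dose, with vehicle at 0 and 680 mg/kg at 5, gave Apom a slope of 0.021 per rank (95% interval 0.0019 to 0.040, unadjusted p = 0.0318, limma adjusted p = 0.948). It was the 1 gene of the 10 with an unadjusted p under 0.05 for the trend, which 5.14% of all probe sets reached, and 0% of all probe sets passed after adjustment. The test for any difference among the 6 groups gave Apom an unadjusted p of 0.0946, with an adjusted p of 1.00, and gave 0 of the 10 genes an unadjusted p under 0.05, against 3.85% of all probe sets. After adjustment 0% of all probe sets passed that test.

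The remaining 8 genes differed less. Among proteins of high density lipoprotein, Apoa1 averaged 13.02 ± 0.063 at 0.07 mg/kg and 13.10 ± 0.062 in vehicle rats (SD, n = 6 each), and 0 of 6 rats at that dose lay above the vehicle mean. The groups overlapped, since rats at 0.07 mg/kg ran from 12.94 to 13.09 and vehicle rats from 13.01 to 13.17, and the fold was 0.950 (95% interval 0.878 to 1.03, unadjusted p = 0.198, limma adjusted p = 1.00). Apoa1 group means at the higher doses were 13.06, 13.10, 13.09 and 13.04. Apoa2 had group means of 13.17 in vehicle rats and 13.17, 13.18, 13.17, 13.16 and 13.15 from the lowest to the highest dose, a narrower span than the SD of any single group. Apob, the backbone of the secreted particles, had 13.18 in vehicle rats and 13.12, 13.18, 13.19, 13.13 and 13.17 in the dose groups. Its lowest fold was 0.962, at 0.07 mg/kg.

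Among the genes of particle clearance, Apoa5 had group means of 11.91 in vehicle rats and 11.93, 11.92, 11.91, 11.89 and 11.90 from the lowest to the highest dose. Its 5 folds lay between 0.986 and 1.01. Apoc1, which in vitro slows the uptake of remnants, had 13.51 in vehicle rats and 13.51, 13.50, 13.49, 13.52 and 13.49 in the dose groups. The groups of Apoc1 differed in spread, with an SD of 0.060 at 6.88 mg/kg against 0.0098 in vehicle rats. Apoc3 had 13.84 in vehicle rats and 13.84, 13.85, 13.84, 13.85 and 13.82 in the dose groups. Apoe had 13.82 in vehicle rats and 13.83, 13.82, 13.80, 13.81 and 13.82 in the dose groups, and Apoh had 13.68 in vehicle rats and 13.67, 13.68, 13.68, 13.68 and 13.67. For Apoc1, Apoc3, Apoe and Apoh together, the interval bounds of the fold lay between 0.934 and 1.06. These intervals came from a fit that draws each variance towards the common one, so that the standard error of Apoh at 680 mg/kg, 0.032, exceeded its own SD within groups of 0.019.

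**Figure D3:**
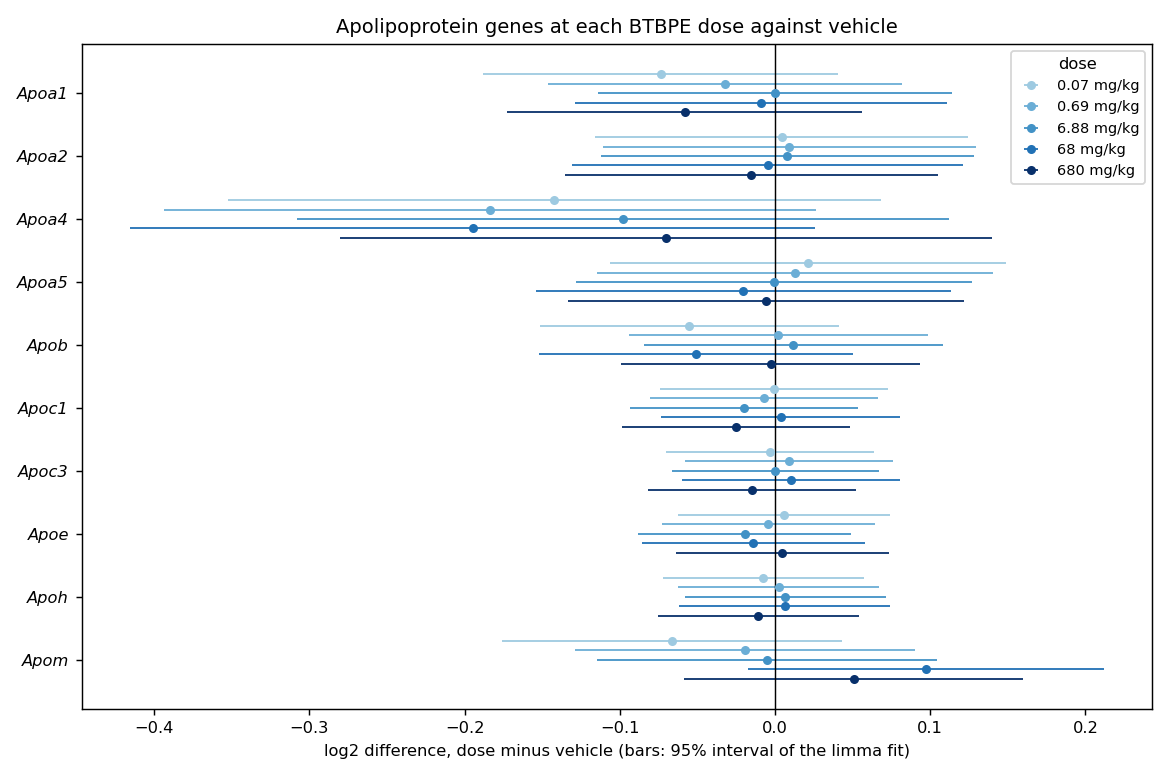
Log2 difference of each gene at each dose from vehicle (x axis, dose minus vehicle), with the 95% interval of the limma fit as a bar and 1 row per gene. All 50 intervals cross 0, and the intervals of Apoa4 are the widest.

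As a group the 10 genes had smaller differences from vehicle than the array as a whole. Their median absolute log2 difference from vehicle was 0.014, 0.0092, 0.0072, 0.012 and 0.015 from the lowest to the highest dose, where all probe sets had 0.051, 0.049, 0.054, 0.055 and 0.056. This stands beside the smaller spread of bright probe sets given above and is no evidence of a separate behaviour. The signed medians of the 10 genes were -0.0053, -0.0012, -0.00035, -0.0068 and -0.013, beside -0.0010, -0.0022, -0.0025, -0.0023 and -0.0035 over all probe sets. Higher than in vehicle rats were 3 of 10 genes at 0.07 mg/kg, 5 at 0.69 mg/kg, 5 at 6.88 mg/kg, 4 at 68 mg/kg and 2 at 680 mg/kg.

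The genes that build, remodel and take up lipoproteins were described from a list of 35, of which 30 were measured. By limma, 0 of 30 passed an adjusted p of 0.05 at any dose, as did 0% of all probe sets. An unadjusted p of 0.05 was passed by 1 of 30 at each of 0.69, 6.88 and 68 mg/kg. Of all probe sets, 3.16%, 4.63% and 3.88% passed it at these doses. From the lowest to the highest dose, 14, 13, 13, 12 and 17 of 30 were higher than in vehicle rats, with median log2 differences of -0.0062, -0.011, -0.0049, -0.013 and 0.013. The smallest p at 680 mg/kg belonged to Angptl8, a secreted inhibitor of lipoprotein lipase activity induced by feeding, with a log2 difference of 0.46 (unadjusted p = 0.0660, adjusted p = 0.994), and to Mia2, a protein of secretory cargo export, with -0.065. At 68 mg/kg it was Lrp1, a remnant receptor, with -0.18 (unadjusted p = 0.0429, adjusted p = 0.999), followed by Surf4, a cargo receptor of lipoprotein export, with 0.075. At 6.88 mg/kg it was Tm6sf2, which acts in lipidation of the nascent particle, with -0.12 (unadjusted p = 0.0254, adjusted p = 0.999), and Abcg5, a sterol exporter, with -0.49. At 0.69 mg/kg it was again Angptl8, with 0.65 (unadjusted p = 0.0106, adjusted p = 1.00), and P4hb, a subunit of the microsomal triglyceride transfer complex, with 0.064. At 0.07 mg/kg it was Surf4, with 0.068, and Abcg1, another sterol exporter, with -0.14.

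Transcription factors known to act on apolipoprotein genes were listed as 23, of which 22 were measured, and by limma 0 of 22 passed at any dose. An unadjusted p under 0.05 was reached by 0, 0, 1, 1 and 2 of 22 from the lowest to the highest dose. Of all probe sets, 3.64%, 3.16%, 4.63%, 3.88% and 4.95% reached it. In the dose trend it was reached by 4 of 22, against 5.14% of all probe sets. Higher than in vehicle rats were 11, 7, 11, 11 and 9 of 22 from the lowest to the highest dose, with median log2 differences of 0.00076, -0.023, 0.0064, -0.0083 and -0.014. Foxa1, a pioneer factor of liver, had a log2 difference of 0.23 at 680 mg/kg (unadjusted p = 0.0185, adjusted p = 0.994), and Foxo1, which insulin signalling keeps out of the nucleus, had -0.17 (unadjusted p = 0.0253, adjusted p = 0.994). At 68 mg/kg Nr0b2, a corepressor of nuclear receptors that bile acids induce, had -0.86 (unadjusted p = 0.0196, adjusted p = 0.999), and Foxa1 had 0.15. At 6.88 mg/kg Nr5a2, an activator of bile acid genes, had -0.22 (unadjusted p = 0.00527, adjusted p = 0.999), and Cebpa had 0.22. At 0.69 mg/kg Ppara, the fasting-responsive fatty acid receptor, had -0.32 and Nr0b2 -0.57. At 0.07 mg/kg Ppara had -0.21, and Nr2f1, whose mean of 3.33 was below the lowest array median, had 0.093.

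Co-variation with sterol, fed-state and fasting genes was measured between rats within groups, so that dose did not enter. For each list, an index per rat was the mean over its genes of the deviation from the group mean in units of that gene's SD. The sterol index held 20 of 25 listed genes of cholesterol synthesis and uptake, and Idi1, Cyp51 and Acat2 followed it most closely, with r = 0.960, 0.956 and 0.956. The fed index held 18 of 19 listed genes of fatty acid synthesis, led by Fasn at 0.875, Acly at 0.872 and Slc25a1 at 0.868. The fasting index held 16 of 22 listed genes and was looser, led by Sik1 at 0.704, Klf15 at 0.678 and Pck1 at 0.648. Fgf21 at -0.152 and Angptl4 at -0.0724 ran against it. Lpin1 at 0.0194, Fbp1 at 0.0552, Tat at 0.101 and Pdk4 at 0.150 followed it least of the others. For every index, a gene was compared with a mean that holds the gene itself. Its own part raises these r, which are no test. The sterol and fed indices correlated with each other at r = 0.52, the sterol and fasting indices at -0.17 and the fed and fasting indices at -0.35. The difference between the 3' and 5' probe sets of beta-actin (Actb), a measure of RNA and labelling quality that ran from 1.02 to 1.37, correlated with the sterol index at 0.45, with the fed index at 0.34 and with the fasting index at -0.14. These 6 correlations are descriptions over 35 arrays that each supplied both measures.

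The index lists themselves did not pass at any dose. The sterol list had 3, 9, 2, 4 and 1 of 20 genes higher than in vehicle rats from the lowest to the highest dose, with medians of -0.052, -0.028, -0.12, -0.066 and -0.076. The fed list had 3, 11, 4, 11 and 4 of 18 higher, and the fasting list had 5, 3, 9, 6 and 5 of 18 higher. The medians of the fasting list were -0.11, -0.11, -0.026, -0.043 and -0.15. By limma, 0 genes of these lists passed an adjusted p of 0.05 at any dose. At an unadjusted p under 0.05, the sterol list and the fed list each had 1 gene at 6.88 mg/kg and 0 at the other doses. The fasting list had 0, 2, 2, 1 and 5 of 18 from the lowest to the highest dose and 4 of 18 in the trend. Of all probe sets, 3.64%, 3.16%, 4.63%, 3.88% and 4.95% passed from the lowest to the highest dose and 5.14% in the trend.

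The 2 genes of each list with the smallest p at each dose had limma adjusted p of 0.994 or higher. In the sterol list they were Insig1, which holds the sterol sensor in the endoplasmic reticulum, with -0.29 and Sc5d with -0.069 at 0.07 mg/kg, then Tm7sf2 with -0.14 and Fdft1, squalene synthase, with -0.11 at 0.69 mg/kg. At 6.88 mg/kg they were Dhcr7, the last reductase of cholesterol synthesis, with -0.34 (unadjusted p = 0.0366) and Fdft1 with -0.17. At 68 mg/kg they were Insig1 with -0.42 and Stard4, a sterol carrier, with 0.20, and at 680 mg/kg Stard4 with 0.21 and Tm7sf2 with -0.14. None of these differences passed the test.

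In the fed list, Mid1ip1 had -0.41 and Acsl5 -0.12 at 0.07 mg/kg, and Fads2 had -0.15 and Scd, the stearoyl-CoA desaturase, -0.36 at 0.69 mg/kg. At 6.88 mg/kg Scd had -0.86 (unadjusted p = 0.00831) and Me1, malic enzyme, -0.26. At 68 mg/kg Pklr had 0.16 and Gpam 0.077, and at 680 mg/kg Me1 had -0.20 and Aacs -0.40. In the fasting list, Lpin1 had -0.31 and Sds 0.31 at 0.07 mg/kg. At 0.69 mg/kg Cpt1a, which admits fatty acids to mitochondria, had -0.32 (unadjusted p = 0.00784) and Igfbp1 -1.06 (unadjusted p = 0.0200). At 6.88 mg/kg Lpin2 had -0.31 (unadjusted p = 0.0144) and Lpin1 -0.33 (unadjusted p = 0.0417). At 68 mg/kg Cpt1a had -0.29 (unadjusted p = 0.0181) and Lpin2 -0.22. At 680 mg/kg Lpin2 had -0.33 (unadjusted p = 0.00931) and Pc, pyruvate carboxylase, -0.20 (unadjusted p = 0.0146).

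A fit of each probe set on each index, with the groups as a term, called 0 of the 10 apolipoprotein genes for any index. The sterol index had 48 calls among 31022 probe sets (0.155%), the fed index 168 of 31024 (0.542%) and the fasting index 20 of 31026 (0.0645%). Only the probe set that entered an index was left out of its test. Any further probe sets of index genes stayed in and could be called through their own gene. The sterol calls held 47 positive slopes (0.152%) and 1 negative (0.00322%). The fed calls held 139 positive (0.448%) and 29 negative (0.0935%) slopes, against 60 and 34 after a second quantile normalization and 636 and 31 with each array centred on its median. The fasting calls held 17 positive (0.0548%) and 3 negative (0.00967%), against 20 and 15 and then 25 and 1 under the same alternatives. At an unadjusted p under 0.05, the 10 genes gave 2 for the sterol index, 1 for the fed index and 0 for the fasting index, where 6.98%, 12.3% and 8.28% of all probe sets passed. The median slope of the 10 genes was -0.0032 on the sterol index, -0.0079 on the fed index and 0.020 on the fasting index, beside -0.00055, -0.0019 and -0.0028 over all probe sets.

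The 3 genes with the largest relations were Apoa1, Apoa2 and Apoa4. Apoa1 had a slope on the fed index of 0.059 log2 per unit (95% interval 0.013 to 0.10, unadjusted p = 0.0129, limma adjusted p = 0.241). Its correlation with that index over 35 rats was r = 0.49 (two-sided permutation p = 0.00317, adjusted p = 0.0951 over 30 relations) and rho = 0.41 (permutation p = 0.0155, adjusted p = 0.191). Without the 2 rats farthest from the median of the index r was 0.50. Within groups r was -0.68 in vehicle rats and 0.58, 0.82, 0.86, 0.51 and 0.47 from the lowest to the highest dose, so the vehicle rats ran opposite to every dose group.

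Markers of some other liver cell types moved against the fed index between rats. Over all probe sets, 12.3% had an unadjusted p under 0.05 on that index and 0.542% were called by limma, with a median slope of -0.0019. Of the Kupffer cell and macrophage markers, 12 of 12 had negative slopes on that index, with a median of -0.16. Of these, 6 were at an unadjusted p under 0.05 and 0 were called by limma. Of the endothelial markers, 7 of 9 were negative with a median of -0.092, 5 at that p and 0 called, and of the lymphocyte markers 11 of 11 were negative, 1 at that p and 0 called. Stellate cell and fibroblast markers went the other way, with 10 of 11 positive slopes and a median of 0.059. Cholangiocyte markers had 5 of 5 positive slopes and a median of 0.038, and 0 markers of either list were at that p. Hepatocyte markers had 5 of 9 positive slopes and a median of 0.0053, with 0 at that p. Whether signal near the ceiling compressed the slopes of the hepatocyte markers was not tested. On the sterol index, 11 of 12 Kupffer cell markers and 9 of 9 endothelial markers had negative slopes, 0 of them at that p. Cholangiocyte markers had 5 of 5 positive slopes on the sterol index, also with 0 at that p. The part of these markers in the relations of Apoa1, Apoa2 and Apoa4 to the indices was not tested. Between groups, the Kupffer cell markers were lower than in vehicle rats in 11, 11, 10, 11 and 11 of 12 from the lowest to the highest dose, with medians of -0.19, -0.089, -0.095, -0.31 and -0.093. By limma 0 were called, and 1 of 12 had an unadjusted p under 0.05 at 68 mg/kg and 0 at the other doses. At 68 mg/kg 3.88% of all probe sets had such a p. Their log2 summed level averaged 12.31, 12.40, 12.42, 12.27 and 12.40 in those dose groups and 12.49 in vehicle rats. None of the 12 was below the lowest array median on average.

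Apoa2 was related to the sterol index, with a slope of 0.047 (95% interval 0.0064 to 0.087, unadjusted p = 0.0244, limma adjusted p = 0.661), r = 0.44 (permutation p = 0.00841, adjusted p = 0.119) and rho = 0.33 (permutation p = 0.0538, adjusted p = 0.269). Without the 2 farthest rats r was 0.39. Within groups r was 0.87 in vehicle rats and -0.017, 0.53, 0.079, 0.70 and -0.083 in the dose groups, so 4 of 6 groups had the sign of the pooled value.

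Apoa4 ran against the sterol index, with a slope of -0.086 (95% interval -0.16 to -0.016, unadjusted p = 0.0169, limma adjusted p = 0.633), r = -0.42 (permutation p = 0.0119, adjusted p = 0.119) and rho = -0.47 (permutation p = 0.00419, adjusted p = 0.126). Leaving out the 2 rats with the lowest sterol index, vehicle replicate 4 and 0.69 mg/kg replicate 2, changed r to -0.55, with an adjusted p of 0.0246. Within groups r was 0.20 in vehicle rats and -0.55, -0.92, 0.23, -0.63 and -0.73 in the dose groups. The relation of Apoa4 to the fasting index, r = 0.34 (permutation p = 0.0443, adjusted p = 0.242), rho = 0.20 (permutation p = 0.243), was 0.11 without the 2 farthest rats and so rested on them.

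**Figure D4:**
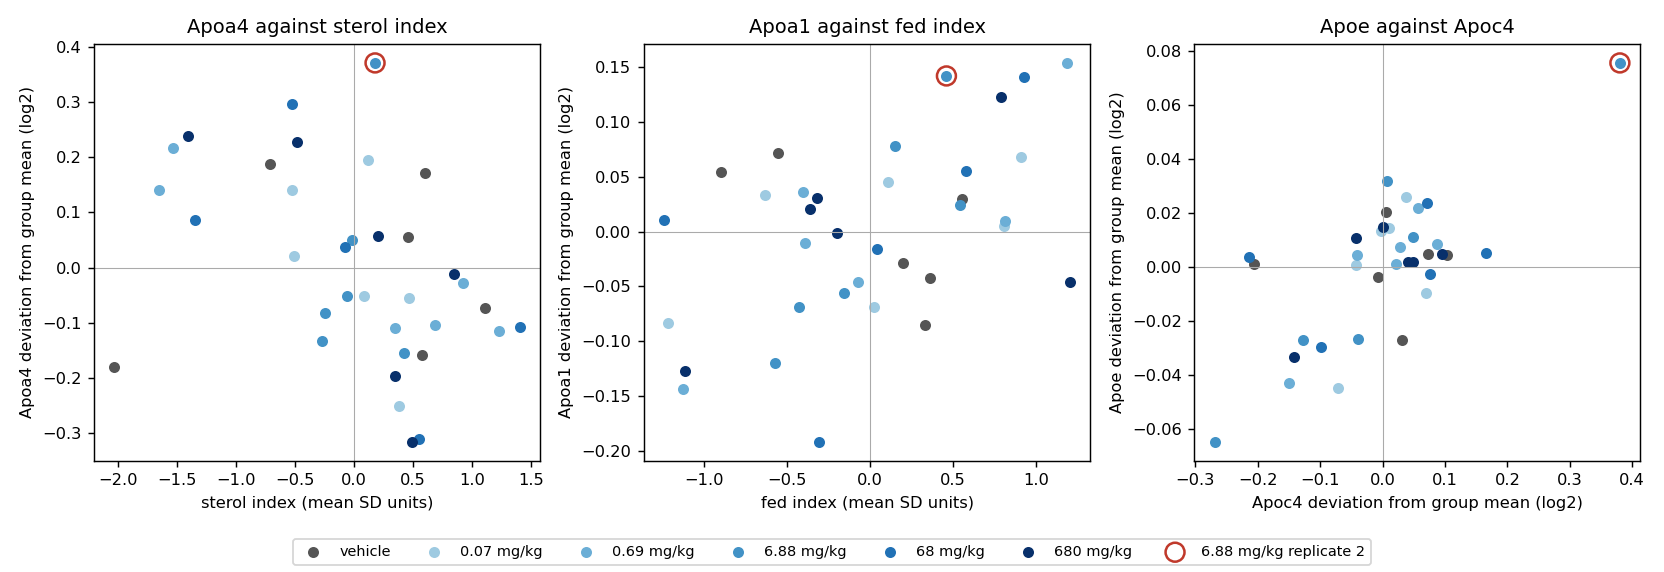
Deviations from the group mean (log2) of Apoa4 against the sterol index (left), of Apoa1 against the fed index (middle) and of Apoe against its neighbour Apoc4 (right), 1 point per rat and 1 colour per group, with 6.88 mg/kg replicate 2 ringed. The pooled r was -0.42, 0.49 and 0.71. The vehicle rats ran against the pooled direction for Apoa4 and Apoa1, and the rats at 6.88 mg/kg did so for Apoa4.

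Of the 30 relations between the 10 genes and the 3 indices, 0 passed an adjusted p of 0.05 by either coefficient, 6 had an unadjusted permutation p under 0.05 for r, and the median absolute r was 0.149. Apoh was the 1 gene with the same sign in 6 of 6 groups among those 6. Its r with the sterol index was -0.36 (permutation p = 0.0363, adjusted p = 0.242) and rho was -0.40 (permutation p = 0.0191, adjusted p = 0.191). Without the 2 farthest rats r was -0.38, and with the Actb difference also removed it was -0.26. Apoc3 had r = -0.34 with the fasting index (permutation p = 0.0485, adjusted p = 0.242) and rho = -0.36 (permutation p = 0.0323, adjusted p = 0.196), and r = -0.38 without the 2 farthest rats. Apoh and Apoc3 had SDs of 0.019 and 0.024, so these relations concern differences between rats of a few percent.

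Other genes of the pathway gave larger slopes on the indices. On the sterol index, 4 of 18 fed-state genes were called, all positive: Aacs with 0.46, Elovl6 with 0.40 (limma adjusted p = 0.000224), Fasn with 0.28 (limma adjusted p = 0.00109) and Acly with 0.28 (limma adjusted p = 0.00363). Lpin1 of the fasting list was called as well, with 0.22 (limma adjusted p = 0.00551). On the fed index, 20 of 20 sterol genes had positive slopes with a median of 0.14, and Nsdhl with 0.21 (limma adjusted p = 0.000116) and Fdps with 0.15 (limma adjusted p = 0.0148) were called. On the sterol, fed and fasting index, 6.98%, 12.3% and 8.28% of all probe sets had an unadjusted p under 0.05. Of the lipoprotein list, 1, 6 and 6 of 30 had such a p, and 0 of 30 were called on any index. Nearest on the fed index were Apobec1, which edits the Apob transcript in rat liver, with 0.16 (limma adjusted p = 0.0952), and Scarb1, the high density lipoprotein receptor, with 0.097 (limma adjusted p = 0.127). Of the regulators, 8, 4 and 5 of 22 had such a p on the sterol, fed and fasting index, and 0 of 22 were called. Nearest on the fed index were Hnf4a, a hepatocyte nuclear receptor that activates several apolipoprotein genes, with 0.14 (limma adjusted p = 0.106), and Nr1h3, an oxysterol receptor, with 0.050 (limma adjusted p = 0.280).

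On the sterol index the smallest p among the lipoprotein genes was that of Ces1d, a carboxylesterase, with a slope of 0.15 (limma adjusted p = 0.461), and among the regulators those of Nr1h3 with 0.046 (limma adjusted p = 0.566) and Hnf4a with 0.089 (limma adjusted p = 0.633). On the fasting index Angptl8 had -0.62 (limma adjusted p = 0.278), Gpld1 had 0.17 (limma adjusted p = 0.343) and Nr0b2 had 0.90 (limma adjusted p = 0.227). Cideb, a lipid droplet protein, had 0.035 on the sterol index (limma adjusted p = 0.727), and Nr5a2, a nuclear receptor of hepatocytes, had 0.14 on the fasting index (limma adjusted p = 0.556). Of the index lists, the nearest on the fed index were Lpin1 with 0.23 (limma adjusted p = 0.0526) and Pdk4 with -0.28 (limma adjusted p = 0.141) of the fasting list. On the fasting index they were Fdps with -0.18 (limma adjusted p = 0.537) and Insig1 with -0.40 (limma adjusted p = 0.711) of the sterol list, and Mid1ip1 with -0.68 (limma adjusted p = 0.332) and Fasn with -0.40 (limma adjusted p = 0.445) of the fed list. None of these passed.

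Among the 45 pairs of apolipoprotein genes, correlations of deviations from group means ran from -0.35 to 0.48. Of the 45, 31 were positive, 10 had an unadjusted permutation p under 0.05 and 0 passed after adjustment. The highest was that of Apoa1 and Apom, both on high density lipoprotein, with r = 0.48 (permutation p = 0.00306, adjusted p = 0.138) and rho = 0.48 (permutation p = 0.00419). Without the 2 rats farthest in Apoa1 r was 0.55, with an adjusted p of 0.0252. Within groups it was 0.14 in vehicle rats and 0.70, 0.78, 0.80, -0.41 and 0.40 from the lowest to the highest dose, so 5 of 6 groups were positive. Apom also varied with Apoa5, at r = 0.40 (permutation p = 0.0172, adjusted p = 0.224) and rho = 0.42 (permutation p = 0.0135), with r = 0.37 without the 2 farthest rats. Apom and Apoc3 had r = -0.35 (permutation p = 0.0411, adjusted p = 0.224), rho = -0.18 (permutation p = 0.307) and r = -0.22 without the 2 farthest rats, with a negative value in 6 of 6 groups.

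**Figure D5:**
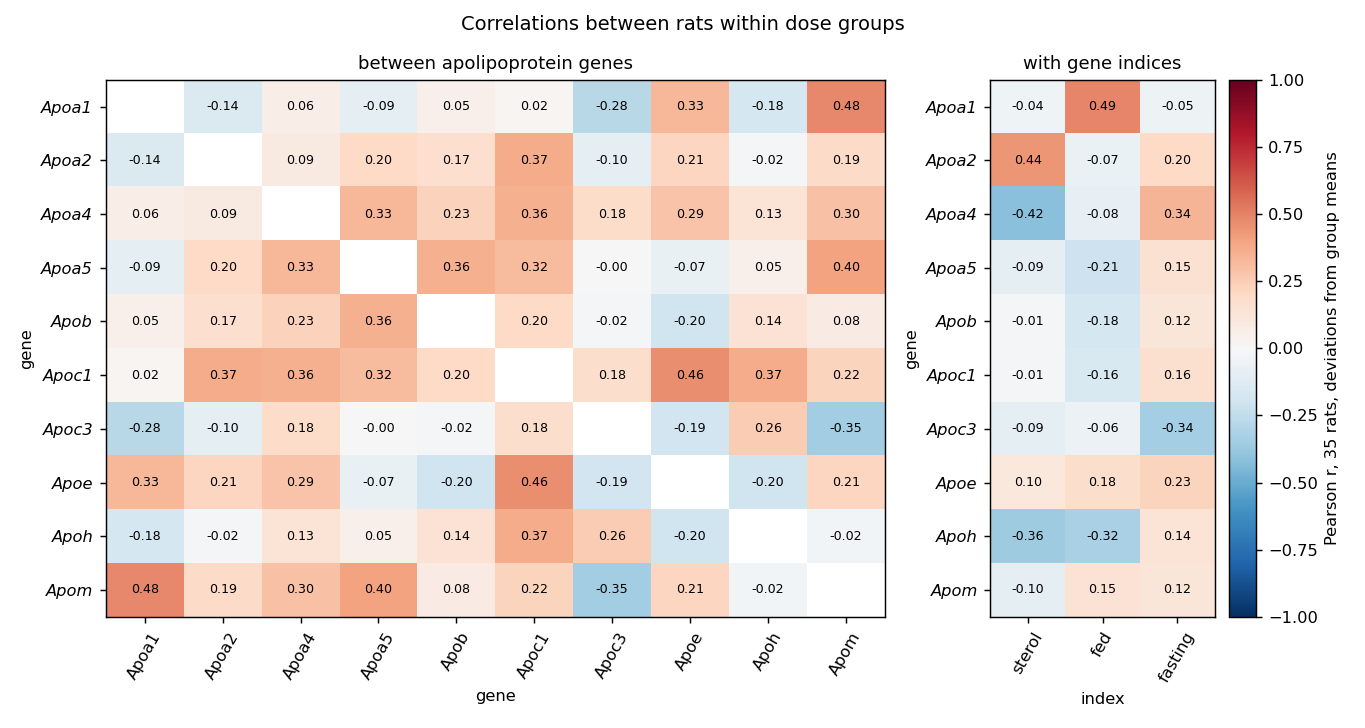
Pearson r over 35 rats of deviations from group means between the 10 genes (left) and between each gene and the sterol, fed and fasting indices (right). The strongest cells are Apoa1 with the fed index at 0.49 and Apoa1 with Apom at 0.48, and none passed adjustment.

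Apoc1 and Apoe, neighbours on chromosome 1, had r = 0.46 (permutation p = 0.00641, adjusted p = 0.144) but rho = 0.20 (permutation p = 0.235). Without the 2 rats farthest in Apoc1 r was 0.27, and without the 2 farthest in Apoe it was 0.090, so the relation rested on those rats. Without 6.88 mg/kg replicate 2 alone it was 0.24 (permutation p = 0.179). Within groups r was 0.49 in vehicle rats and -0.79, 0.35, 0.92, -0.12 and 0.75 in the dose groups. Apoc1 and Apoh had r = 0.37 (permutation p = 0.0282, adjusted p = 0.224) and rho = 0.35 (permutation p = 0.0413), and without the 2 rats farthest in Apoc1 r was 0.53, with an adjusted p of 0.0252. Their values within groups were 0.57 in vehicle rats and 0.80, -0.16, -0.61, 0.20 and 0.86 in the dose groups.

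The neighbourhood of Apoe was then set beside that of Apoa1, a choice made after these values had been seen. Apoc4, which lies next to Apoc1, and Apoc2, which lies next to Apoc4, are not among the 10 genes. Apoc2 encodes the activator of lipoprotein lipase. Apoc2 averaged 13.00 with an SD within groups of 0.060, and Apoc4 averaged 11.41 with an SD of 0.13. All 6 pairs of Apoe, Apoc1, Apoc4 and Apoc2 correlated positively over 35 rats, with a median r of 0.62 and a range of 0.46 to 0.76, while rho ran from 0.20 for Apoe and Apoc1 to 0.53 for Apoc4 and Apoc2. Without the 2 rats farthest in the first gene named, Apoc4 and Apoc2 had 0.64, Apoe and Apoc4 0.47, Apoe and Apoc2 0.39, Apoc1 and Apoc4 0.37, Apoc1 and Apoc2 0.36, and Apoe and Apoc1 0.090. One array, 6.88 mg/kg replicate 2, stood 0.38 above its group mean in Apoc4, at 11.72, and 0.13 above it in Apoc2, at 13.09. Without it, an alternative chosen after seeing the data, all 6 pairs stayed positive, with a median r of 0.49 and a range of 0.24 to 0.71. The 4 neighbours on chromosome 8 did not vary together in this way: of the 6 pairs of Apoa1, Apoc3, Apoa4 and Apoa5, 3 were positive, with a median r of 0.031 and a range of -0.28 to 0.33. Without that array 3 were positive, with a median of -0.013 and a range of -0.25 to 0.27. Each array supplied both genes of a pair, so the members of a pair share RNA and labelling, and the difference between the neighbourhoods was not tested.

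A rat at 6.88 mg/kg, replicate 2, had the highest value of all 35 rats in 5 of the 10 genes, Apoa1, Apoa2, Apoa4, Apoc1 and Apoe, and was among the top 3 in 7. Its Actb difference of 1.37 was also the highest of the 35 arrays. The part of that array in the correlations was measured by leaving it out, an alternative chosen after seeing the data. The adjusted permutation p was then 0.0584 for each of Apoa1 with the fed index (r = 0.48), Apoa2 with the sterol index (r = 0.46) and Apoa4 with the sterol index (r = -0.47). Among the 45 pairs of apolipoprotein genes, 4 then had an unadjusted permutation p under 0.05, against 10 with that array, and 0 passed adjustment. The 4 were Apoc1 with Apoh at 0.51 (permutation p = 0.00191, adjusted p = 0.0859), Apoa1 with Apom at 0.43 (permutation p = 0.0105), Apoa5 with Apom at 0.35 (permutation p = 0.0404) and Apoa5 with Apob at 0.34 (permutation p = 0.0488). Among the pairs that no longer had such a p, Apoe with Apoc1 had 0.24, Apoe with Apoa1 0.22, Apoa2 with Apoc1 0.19, Apoa4 with Apoc1 0.18, Apoa4 with Apoa5 0.27 and Apoc3 with Apom -0.33 without that array.

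For each gene, the 2 genes whose deviations from group means correlated most highly with its own over 35 rats were taken from 9668 genes above the lowest array median. These values are maxima over many genes and carry no test. Apoa1 was nearest to Pheta1 (r = 0.83) and Elovl2, a fatty acid elongase (r = 0.76). Apoa2 was nearest to Phyh, a peroxisomal hydroxylase (r = 0.67), and Echdc1 (r = 0.66). Apoa4 was nearest to Gmppa and Gjb1, the gap junction protein of hepatocytes (r = 0.68 each). Apoa5 was nearest to Hrg, a plasma glycoprotein (r = 0.76), and Wfdc2 (r = 0.71). Apob was nearest to Pzp, a plasma protease inhibitor (r = 0.69), and Zfhx3 (r = 0.65). Apoc1 was nearest to Cmc2 (r = 0.64) and Tpst1 (r = 0.63), and Apoc3 to Tbx2 (r = 0.64) and Foxc2 (r = 0.63). Apoe was nearest to its chromosomal neighbour Apoc4 (r = 0.71) and to Tcirg1 (r = 0.68). Apoh was nearest to Mfsd3 (r = 0.75) and Rab17 (r = 0.72), and Apom to Cdo1, a cysteine dioxygenase of liver (r = 0.75), and Antkmt (r = 0.70). Apart from Apoc4, none of these 20 genes was an apolipoprotein gene.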

How the data were processed

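The deposited table held log2 expression values, which the authors made with RMA (per the submitters' processing notes, which also name affy); software versions are given in none of the sources used here, and the log base follows from the RMA convention. Per the labels' protocols, 100 ng of total RNA (integrity number 7.0 or higher) was labelled with a 3' in vitro transcription kit. Of 31099 probe sets, 57 controls were left out. Gene names came from the platform annotation: 20826 of 31042 probe sets had 1 symbol, 436 several and 9780 none. The number of arrays, 35, limits the precision.

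One linear model over the 6 groups was fitted to all probe sets in limma 3.58.1 (R 4.3.3), with Benjamini-Hochberg adjustment over all of them and 0.05 as the limit. It took the place of R/maanova, which the series design gives with a 5% false discovery rate. Contrasts of each dose with vehicle, an F test, a trend over dose rank and slopes on 3 indices were taken from such fits. The indices used genes whose brightest probe set averaged above the lowest array median. Correlations used deviations from group means and two-sided permutation tests with 100000 resamples (Python 3.11.15, scipy 1.17.1, numpy 2.4.6, pandas 2.3.3, matplotlib 3.10.9).

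The members, gene lists and tests were chosen with earlier results of these data known. All 10 members are named, with the 2 genes most like each. From each pathway list the called genes of a comparison are named, up to 4, or otherwise the 2 with the smallest p, and from each index the 3 genes closest to it. Alternatives covered normalization, a filter on dim probe sets, the variance model, the replicate block, the Actb covariate, the index and each rat left out. The fit was checked on data with known answers. With 100 probe sets changed at 680 mg/kg by a log2 difference of 0.5, 87 were recovered beside 8 false calls. At a difference of 1, 99 of 100 were recovered beside 8 false calls. For a sterol index slope with an effect of 1 SD, 79 of 100 were recovered beside 2 false calls.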

Additional observations from a re-analysis of the deposited data

Results flagged for a closer look

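In groups of 5 or 6 rats, a value whose gap to its nearest neighbour took up more of the group's range than the 95% limit of Dixon's test was noted. This occurred in 3 of 72 groups over the 12 probe sets, and chance gives about 1 in 20. The second Apob probe set was 8.01 in 6.88 mg/kg replicate 3, against 6.55 to 6.94 in the other rats of that dose. The brightest Apoe probe set was 13.77 in 0.69 mg/kg replicate 2, the lowest of a group whose other rats had 13.82 to 13.84. Apoe was 13.79 in 680 mg/kg replicate 3, below the 13.83 to 13.84 of the other rats of that dose.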

How the results depend on the processing

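In every alternative run, 0 of the 10 apolipoprotein genes and 0 probe sets were called at any dose, in the F test or in the trend, and 0 of the 10 genes on any index. The 2150 recomputed dose differences ran from -0.27 to 0.12, moved by at most 0.078, took the other sign in 106 cases and had a smallest adjusted p of 0.927. The counts of probe sets called on the indices did move, and the cause was not tested. For the fed index, 168 calls became 377 with dim probe sets left out, 94 after a second quantile normalization, 667 with arrays centred on their medians, 78 with Actb as a covariate and 31 without the 2 farthest rats. For the fasting index, 20 became 35 after a second quantile normalization, 10 with a median index and 1 without the 2 farthest rats, and for the sterol index 48 became 23 without them.

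Leaving out each rat gave 41 to 58 sterol calls, 64 to 219 fed calls and 0 to 33 fasting calls. The fed count was 82, 64 and 103 without 0.07 mg/kg replicates 1, 5 and 6, and 75 and 84 without 0.69 mg/kg replicates 2 and 5. The fasting count was 0 without 68 mg/kg replicate 2, 33 without 680 mg/kg replicate 2, and 5 without 0.07 mg/kg replicate 3 or 68 mg/kg replicate 5. It was 9 without 0.07 mg/kg replicate 1 or 4 or 6.88 mg/kg replicate 3, and 10 without 0.07 mg/kg replicate 6, 6.88 mg/kg replicate 1 or 680 mg/kg replicate 4. It was 11 without vehicle replicate 4, 12 without 0.07 mg/kg replicate 2 or 0.69 mg/kg replicate 1 or 2, and 13 without vehicle replicate 1, 6.88 mg/kg replicate 5 or 68 mg/kg replicate 1.

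Same-numbered rats of different groups did not deviate together: 8 of 85 pairs correlated above 0.1, and in 0 of 15 pairs of groups did every pair do so. With the replicate block, fed calls were 76, fasting calls 2 and sterol calls 42, and 0 of the 10 genes were called. Of the correlations, 4 passed an adjusted p of 0.05 once the 2 farthest rats were left out: Apoa1 with the fed index (0.50), Apoa4 with the sterol index (-0.55), Apoa1 with Apom (0.55) and Apoc1 with Apoh (0.53). In 17 cases a correlation that did not pass adjustment changed sign under an alternative. The level of Apob was 6.93 and that of Apoe 2.48 by their other probe sets.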
